A study of Mus musculus with 31 samples.

Results

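Autophagy genes were followed in single 2-cell mouse embryos generated with control- or SER-treated sperm. In the deposited count table they were taken as all gene symbols that begin with Atg and a number, with Map1lc3, with Gabarap or with Wipi and a number, together with Ulk1, Ulk2, Becn1, Pik3c3, Pik3r4, Rb1cc1, Sqstm1, Nbr1, Optn, Ambra1, Uvrag, Tfeb, Tfe3 and Vmp1. This gave 39 of the 20544 symbols. There were 16 control- and 15 SER-generated embryos, each sequenced as a library of its own.

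Sperm came from the cauda epididymides of C57BL/6J males aged 12 to 14 weeks, and oocytes from superovulated CD1 females aged 8 to 10 weeks, all labelled as wild type. For each pair of groups one cauda was placed in complete IVF-TYH medium (control) and the other in the same medium without glucose and pyruvate (SER, sperm energy restriction and recovery), until the restricted sperm stopped moving after 15 to 45 min. Both kinds of sperm were then returned to complete medium and left with the oocytes for 4 h, and embryos were cultured in KSOM until 32 HPI (hours post-insemination). Only the sperm were treated, so oocytes and embryos of both groups shared the same media. The paper reports independent batches of embryos, but the labels do not say which embryos shared a male, a clutch of oocytes or a sequencing batch. The tests here therefore took the embryos as independent. Their p-values set a difference against the spread between these embryos, part of which may be technical. They do not set it against the spread between repeats of the sperm treatment.

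Autophagy encloses cytoplasm in a double membrane, the autophagosome, and delivers it to the lysosome for breakdown. The ULK kinase complex starts the process, a phosphatidylinositol 3-kinase complex marks the site, lipid transfer proteins and scramblases enlarge the membrane, and a ubiquitin-like conjugation system attaches the Atg8 proteins (the LC3 and GABARAP families) to it, where cargo receptors bind. In the mouse, autophagy is induced soon after fertilization, and embryos from oocytes without Atg5 that are fertilized by Atg5-deficient sperm stop in early cleavage. Transcription factors of the TFEB and TFE3 type drive many autophagy and lysosome genes in other cells.

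Library totals ran from 532945 to 2085222 counts in control- and from 642321 to 3088396 in SER-generated embryos. All 31 embryos had counts from both an oocyte list and a list of genes of zygotic activation. Zygotic genes such as Pdxk took 2124 to 5925 CPM (counts of a gene scaled to a common library total) in 29 embryos. In control replicate 4 and SER replicate 15 they took 386 and 560 CPM, although these libraries held 662768 and 2567720 counts and 11191 and 10786 detected genes, both within the range of the others. Summed cumulus cell markers were 15.2 to 306 CPM in 30 embryos and 1696 CPM in control replicate 5, of which Cyp11a1 made up 1423 CPM. Blood and macrophage markers reached 25.9 CPM, except for 163 CPM in SER replicate 13, and both hemoglobin genes of the list were at 0 in all embryos. Counts of autophagy genes are given with and without these 4 embryos where they change.

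The 39 genes together took 2221 to 5167 CPM in control- and 2862 to 5730 CPM in SER-generated embryos. The low end of each range was control replicate 4 and SER replicate 15. For comparison between genes, CPM was divided by the exon length in GENCODE vM21 on GRCm38, the same assembly as the mm10 build of the counts. On this scale of CPM per kb, Atg101, a stabilizing subunit of the ULK complex, was highest at 250.6 ± 129 (SD, n = 31), followed by Map1lc3a at 179.6 ± 110 (SD, n = 31). Atg5 had 109.9 ± 61.5, Gabarapl2 88.5 ± 72.4, Atg3 69.2 ± 35.6 and Gabarap 63.4 ± 57.1 CPM per kb. The order of these neighbours was not tested within embryos, so it was not resolved. It also depends on the exon length, which was merged over all annotated transcripts. Map1lc3b had a higher median than Map1lc3a, 286 against 185 CPM. Over exon lengths of 7.517 and 1.181 kb, however, its mean was lower, at 42.4 CPM per kb.

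**Figure D1:**
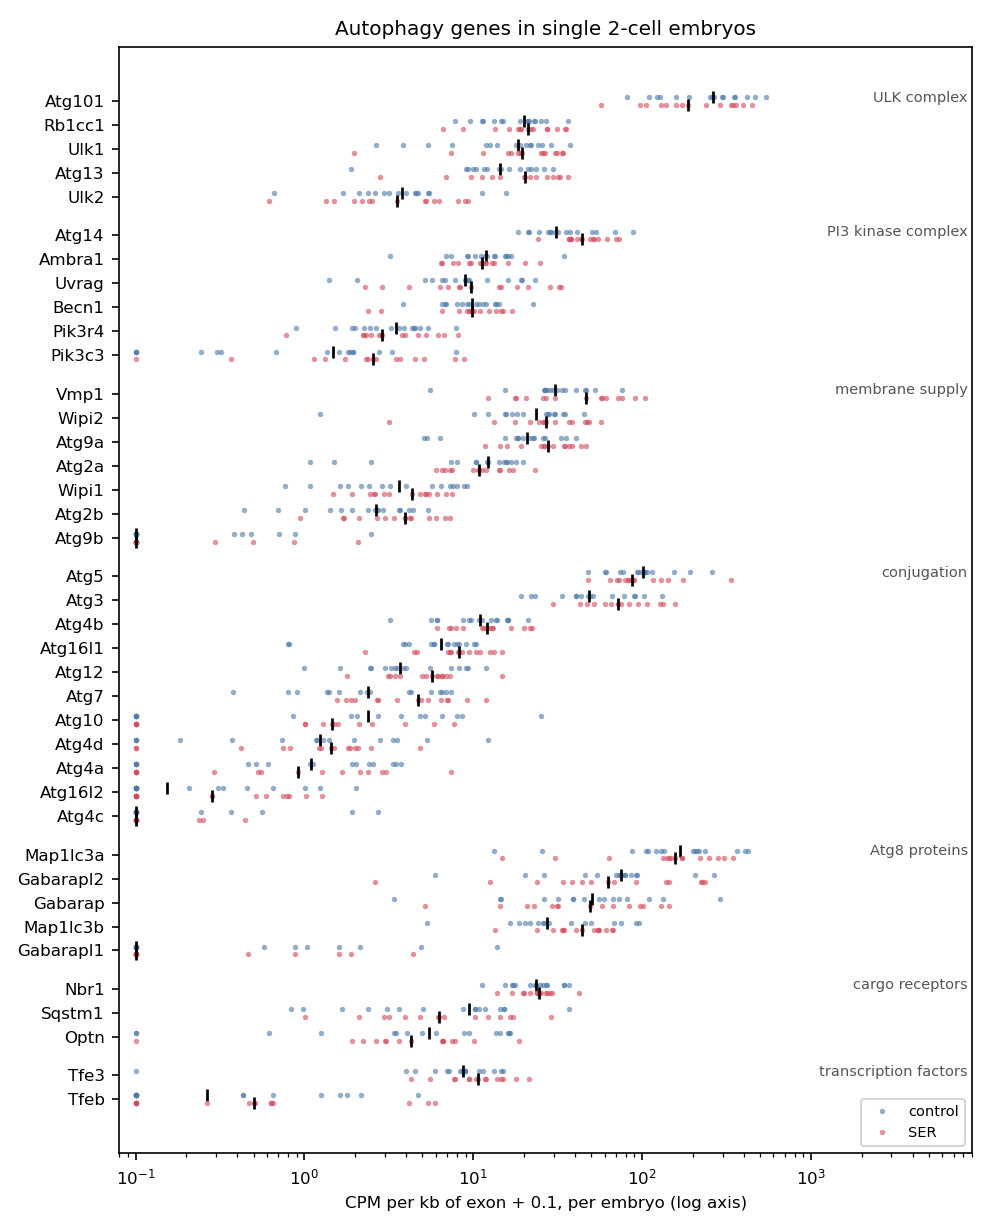
CPM per kb of exon plus 0.1 on a log axis for the 39 autophagy genes, grouped by role. Each point is 1 embryo (control blue, SER red) and each black bar a group median. Atg101 and Map1lc3a sit highest, at means of 250.6 and 179.6 CPM per kb, and Atg4c, Atg9b, Atg16l2, Tfeb and Gabarapl1 lowest.

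Within each role the levels were unequal. In the ULK complex, Rb1cc1 (the scaffold FIP200) and the kinase Ulk1 had 20.0 and 19.0 CPM per kb, and the second kinase Ulk2 4.41. Among the phosphatidylinositol 3-kinase genes, Atg14, which directs the complex to autophagosomes, led with 42.6 CPM per kb, whereas Becn1 had 10.2 and the catalytic subunit Pik3c3 2.29. Of the genes of membrane supply, Vmp1 had 40.7, the phosphoinositide reader Wipi2 26.7 and the scramblase Atg9a 24.7 CPM per kb, while its paralogue Atg9b had 0.26. Among the proteases that trim Atg8 proteins, Atg4b had 11.9 and Atg4c 0.19 CPM per kb. The receptor Nbr1 had 24.1 CPM per kb, above Sqstm1 (p62) with 9.20 and Optn with 6.48. Tfe3 had 9.89 CPM per kb and Tfeb 0.98.

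Of the 39 genes, 31 passed the filter on low counts that left 8571 genes for testing. Counts of at least 1 were found in all 31 embryos for 28 genes. The 8 genes that did not pass were Atg10, Atg16l2, Atg4a, Atg4c, Atg9b, Gabarapl1, Pik3c3 and Tfeb, with counts in 8 (Atg4c) to 27 (Pik3c3) embryos. Some values are uncertain in what they count, since the strand setting of the counting is not given in the sources used here. Exon bases shared with a gene on the opposite strand or an overlapping transcript made up 43.9% of Becn1 (mainly Cntd1), 32.6% of Atg9a (Gm29253 and Ankzf1), 28.3% of Gabarapl1 (1700101I11Rik), 19.3% of Atg4d (Kri1), 17.6% of Uvrag (Gm45187) and 17.3% of Sqstm1 (Mrnip). Of the 30-base words in annotated Atg4a transcripts, 61.3% also occurred in Atg4a-ps, and 15.7% of those of Gabarapl2 occurred in transcripts of other genes, mainly processed pseudogenes such as Gm3724. For Gabarap, Map1lc3a and Atg101 the shares were 0.05%, 0% and 0%.

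SER- and control-generated embryos were first compared to ask whether the sperm treatment was followed by another level of autophagy transcripts in the late 2-cell embryo. No autophagy gene passed an adjusted p of 0.1 in edgeR's quasi-likelihood test, and the smallest adjusted p was 0.869. Across all 8571 genes the share called was 0%. An unadjusted p under 0.05 was found for 0 of the 31 genes and for 5.73% of all genes tested, and DESeq2 called 0 of the 31 against 0.572% of all. An estimate above 0 was found for 20 of the 31 genes, with a median log2 fold change of 0.083, against 52.7% and a median of 0.023 over all genes tested. Without control replicate 4 and SER replicate 15 the median was 0.064, against -0.013 over all genes.

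Among the genes that passed the filter, the smallest unadjusted p belonged to Atg9a on chromosome 1 (75180860 to 75192196), the scramblase of Atg9 vesicles. It had 28.7, 119 and 232 CPM as the lowest, median and highest control value and 67.4, 159 and 267 CPM in SER-generated embryos. The ranges overlapped over most of their length, and the control median was exceeded by 11 of the 15 SER values. Its log2 fold change was 0.47 (SE 0.24, edgeR adjusted p = 0.869). Atg2b, a lipid transfer protein, had 4.53, 34.4 and 71.0 CPM in control- and 11.3, 51.6 and 97.2 CPM in SER-generated embryos, and its estimate was 0.58 (SE 0.32, adjusted p = 0.869). The conjugating enzyme Atg3 had 60.0, 152 and 411 CPM in control- and 93.6, 228 and 491 CPM in SER-generated embryos, and its estimate was 0.43 (SE 0.26, adjusted p = 0.891). These 3 estimates stayed within 2 standard errors of 0.

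Of the estimates below 0 among the genes that passed the filter, that of Atg4d, a protease for Atg8 proteins, was largest in size. It had 0, 8.25 and 88.6 CPM in control- and 0, 9.71 and 34.5 CPM in SER-generated embryos, and its estimate was -0.60 (SE 0.64, adjusted p = 0.958), although its SER median lay above its control median. Atg101 had 129.8, 422 and 865 CPM in control- and 90.7, 299 and 717 CPM in SER-generated embryos, and its estimate was -0.24 (SE 0.28, adjusted p = 0.964). Optn, a receptor for ubiquitinated cargo, had 0, 20.2 and 61.9 CPM in control- and 0, 15.6 and 70.1 CPM in SER-generated embryos, and its estimate was -0.42 (SE 0.56, adjusted p = 0.968). The groups overlapped almost completely for these 3 genes.

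The Atg8 genes together took 92.0, 753 and 2130 CPM as the lowest, median and highest value in control- and 153, 756 and 1615 CPM in SER-generated embryos. Log2 fold changes of the 4 that were tested were -0.28 (SE 0.44) for Gabarap, -0.13 (SE 0.36) for Map1lc3a, 0.043 (SE 0.30) for Map1lc3b and 0.077 (SE 0.45) for Gabarapl2, with adjusted p between 0.973 and 0.993. Map1lc3b, the LC3B gene, had 39.2, 203 and 721 CPM in control- and 100.5, 331 and 507 CPM in SER-generated embryos, and the control median was exceeded by 13 of the 15 SER values. Here the tests differed, since limma voom with sample quality weights put Map1lc3b at 0.78 (SE 0.21, adjusted p = 0.0281). That test called 5 of the 31 genes, all higher in SER-generated embryos, namely Map1lc3b, Atg3 (adjusted p = 0.0543), Atg12 (adjusted p = 0.0617), Atg14 (adjusted p = 0.0749) and Wipi2 (adjusted p = 0.0793). This share of 16.1% stood beside 9.89% of all genes called by the same test, with 4.56% of all genes called as higher. The other alternatives called 0 autophagy genes.

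**Figure D2:**
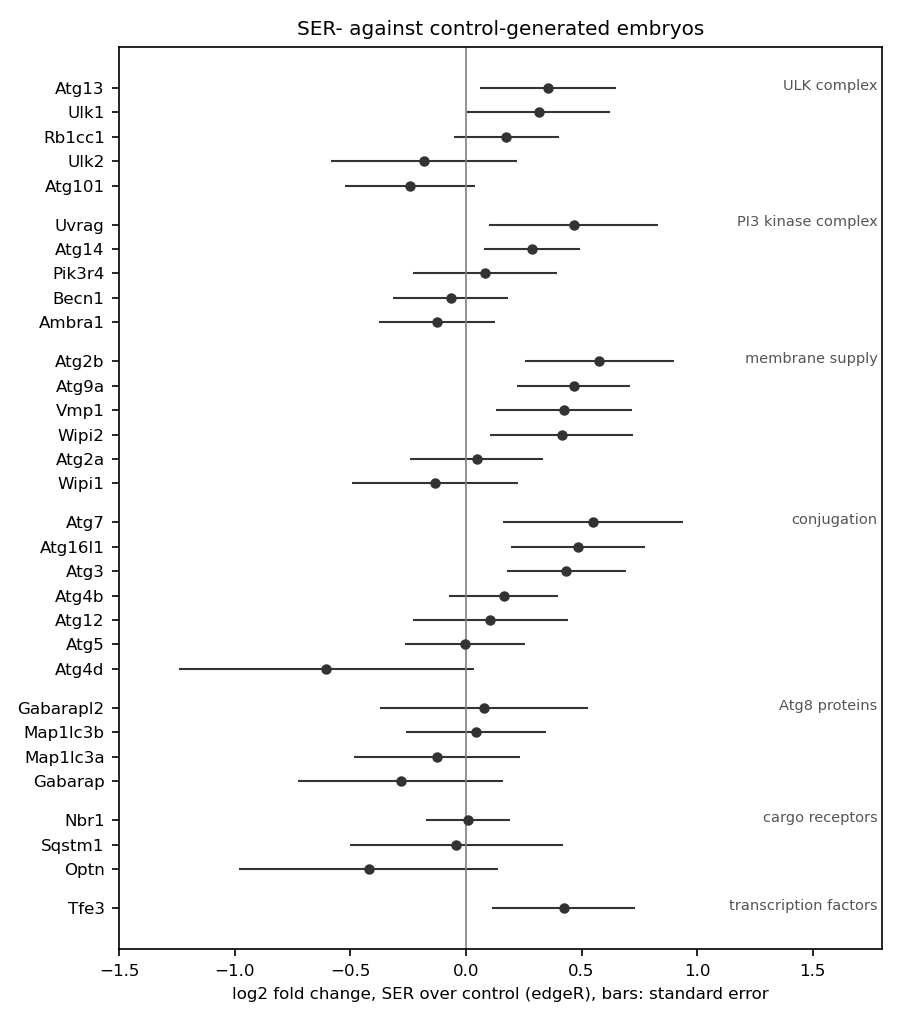
Log2 fold changes of SER- over control-generated embryos with standard errors from edgeR for the 31 autophagy genes that passed the filter, grouped by role. No gene passed an adjusted p of 0.1, and 20 of 31 estimates lie above 0.

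By role, estimates were above 0 for 5 of 6 tested genes of membrane supply (median 0.42), 5 of 7 of conjugation (median 0.16), 3 of 5 of the ULK complex (median 0.18), 3 of 5 of the phosphatidylinositol 3-kinase complex (median 0.083), 2 of 4 Atg8 genes (median -0.041) and 1 of 3 cargo receptors (median -0.042). Tfe3 had 0.42 (SE 0.31, adjusted p = 0.935). Among the 8 genes outside the filter, values come from the fit of all 17803 genes with a count. The protease gene Atg4c, with counts in 8 embryos and at most 9 counts in any of them, was estimated at -2.40 on the log2 scale (SE 0.91, adjusted p = 0.218). Most embryos of either kind lacked a count. Controls at 0 numbered 11 out of 16, and SER libraries at 0 numbered 12 out of 15. The highest values were 8.85 CPM in control replicate 12 and 6.04 CPM in control replicate 4. For the other 7 genes outside the filter, adjusted p lay between 0.645 and 0.999.

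Embryos of either group differed in the balance of zygotic and oocyte RNA, and the autophagy genes were therefore also set against this balance. A zygotic-to-maternal index was taken as the mean log2 CPM of 29 zygotic genes minus that of 32 oocyte genes, none of them an autophagy gene. It ran from -6.77 to -0.95 in control- and from -6.38 to -0.29 in SER-generated embryos, with medians of -1.69 and -1.35. Control replicate 4 and SER replicate 15 had -6.77 and -6.38, and the other 29 embryos lay between -2.96 and -0.29. Summed oocyte genes took 47493 and 33064 CPM in these 2 embryos, within the 16723 to 63548 CPM of the other 29. The highest oocyte sum was that of control replicate 3, which also had 5154 CPM of zygotic genes. For each gene edgeR's quasi-likelihood test gave the slope, the log2 change per unit of the index, with the group as a covariate.

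Of the 31 autophagy genes tested, 15 rose with the index and 6 fell at an adjusted p under 0.1. Across all 8571 genes 54.1% were called, 31.5% rising and 22.6% falling, so a slope was the rule in these embryos, and the autophagy genes had 48.4% rising and 19.4% falling. The median slope was 0.22 for the autophagy genes and 0.028 for all genes. All 4 tested Atg8 genes rose, as did 4 of 5 genes of the ULK complex and 4 of 6 of membrane supply, whereas of the 5 tested genes of the phosphatidylinositol 3-kinase complex 2 fell and 0 rose. Without control replicate 4 and SER replicate 15, 13 autophagy genes rose and 6 fell, against 18.5% and 17.2% of all genes. Without control replicate 5 and SER replicate 13, 16 rose and 5 fell, against 32.4% and 24.0% of all genes. With the index built from the zygotic genes alone, 11 rose and 4 fell, against 26.9% and 17.7%, and Atg3, Atg13, Atg16l1, Atg4d, Ambra1 and Atg12 were not called. With the oocyte genes alone, 17 rose and 4 fell, against 23.6% and 24.5%, and Gabarap, Ambra1 and Wipi1 were not called. The number falling was 3 without control replicate 2, 4, 9, 10 or 13, when Ambra1, Atg12 and Wipi1 each missed the threshold. Of all genes, 4641 were called with 31 embryos, and 2461 of these were called again in the same direction with 29 embryos. Of the 21 autophagy genes called with all embryos, 16 were called again in the same direction, 11 rising and 5 falling, and Atg12 was called in the opposite direction. The other 4, Ulk1, Atg9a, Atg16l1 and Atg4d, were not called but had slopes of the same sign.

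The promoters of Wipi2 and Atg5 are shown because these genes had the smallest p among those that rose and fell, and so differ most clearly in their relation to the index. Each run of 300 bases (RefSeq, GRCm38.p6, plus strand for both) covers 250 bases before to 50 after the annotated start. The E-box CACGTG, the core of the element that TFEB and TFE3 bind, is its own reverse complement, so 1 search covers both strands, and it is in capitals where it occurs. Wipi2 lies at chr5:142629334-142629633 and Atg5 at chr10:44268089-44268388.
Wipi2: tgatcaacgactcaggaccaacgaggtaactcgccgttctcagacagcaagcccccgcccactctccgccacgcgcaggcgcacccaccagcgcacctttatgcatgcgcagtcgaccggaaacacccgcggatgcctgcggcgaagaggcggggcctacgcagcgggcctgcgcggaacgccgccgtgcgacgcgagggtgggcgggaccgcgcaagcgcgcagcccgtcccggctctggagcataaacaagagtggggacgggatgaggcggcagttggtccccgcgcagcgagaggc
Atg5: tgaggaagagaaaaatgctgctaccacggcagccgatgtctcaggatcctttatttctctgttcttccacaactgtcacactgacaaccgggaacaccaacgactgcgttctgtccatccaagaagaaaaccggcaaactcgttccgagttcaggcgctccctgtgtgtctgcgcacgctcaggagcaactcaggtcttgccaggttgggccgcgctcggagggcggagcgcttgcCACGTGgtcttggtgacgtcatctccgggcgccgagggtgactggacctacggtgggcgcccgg

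The Atg5 promoter held 1 CACGTG, starting 14 bases before the start, 24 CG dinucleotides and a GC content of 59.3%. The Wipi2 promoter held no match in this window, 40 CG dinucleotides and a GC content of 69.7%. Of the autophagy genes, 33 had an entry, and 4 of these, Atg3, Atg5, Atg7 and Atg14, held the motif in a promoter, a share of 12.1% beside 9.45% of the 16113 genes of the count table with an entry and 8.09% of all 27025 genes with one. The Atg7 window, from 114670846 to 114671145 on chromosome 6, lay inside the gene, which starts at 114643097 in GENCODE vM21. The same held for Atg14, on the minus strand, with a window from 47568385 to 47568684 and a gene start at 47570649. It also held for the Wipi2 window shown above, since that gene starts at 142627698. With all 31 embryos Atg3 rose with the index, Atg5 fell, and Atg7 and Atg14 were not called, so the 4 genes with a match did not share a direction. In the 29 embryos without control replicate 4 and SER replicate 15, Atg14 was called as rising.

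Wipi2, which binds the phosphoinositide made by the 3-kinase complex and recruits Atg16l1, had a slope of 0.70 (SE 0.087, edgeR adjusted p = 4.77e-08). Control replicate 4 and SER replicate 15 had 12.1 and 32.3 CPM, and the other 29 embryos 105 to 602 CPM with a median of 285. Both embryos therefore lay below every other. Without them the slope was 0.66 (SE 0.16, adjusted p = 0.00348).

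Gabarap, on chromosome 11 from 69991143 to 69994951, had 6.04 and 9.35 CPM in the same 2 embryos and 26.3 to 535 CPM in the other 29. Its slope was 0.83 (SE 0.14, adjusted p = 9.25e-06), and 1.25 (SE 0.27, adjusted p = 0.00116) without the pair. Gabarapl2 had 13.6 and 5.84 CPM against 29.2 to 619 CPM in the other embryos, with a slope of 0.87 (SE 0.16, adjusted p = 3.41e-05) and 0.90 (SE 0.28, adjusted p = 0.0184) without the pair. Both are members of the GABARAP branch, known for a part in late steps of autophagosome formation. Map1lc3b had 39.2 and 100.5 CPM against 123 to 721 CPM, with a slope of 0.47 (SE 0.094, adjusted p = 0.000103). Map1lc3a had 30.2 and 35.8 CPM against 15.6 to 501 CPM, and here 2 of the other embryos lay lower. Its slope was 0.55 (SE 0.12, adjusted p = 0.000226). Without the pair both LC3 genes still rose, with slopes of 0.73 and 0.82 and adjusted p of 0.00621 and 0.0148. Gabarapl1, with counts in 12 embryos, had a slope of -0.87 (SE 0.58, adjusted p = 0.298).

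**Figure D3:**
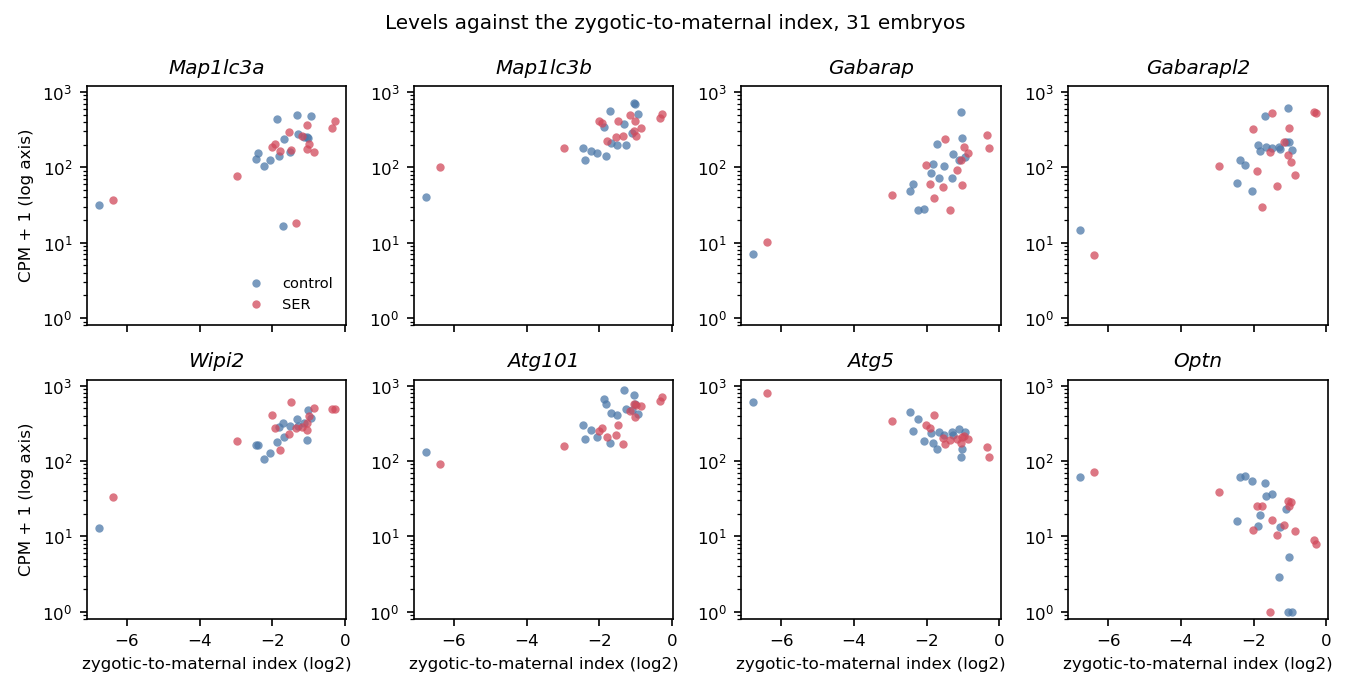
CPM plus 1 on a log axis against the zygotic-to-maternal index for 8 autophagy genes, 1 point per embryo (control blue, SER red). The 2 embryos at the far left are control replicate 4 and SER replicate 15, at an index of -6.77 and -6.38, which are low for the Atg8 genes, Wipi2 and Atg101 and high for Atg5.

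**Figure D4:**
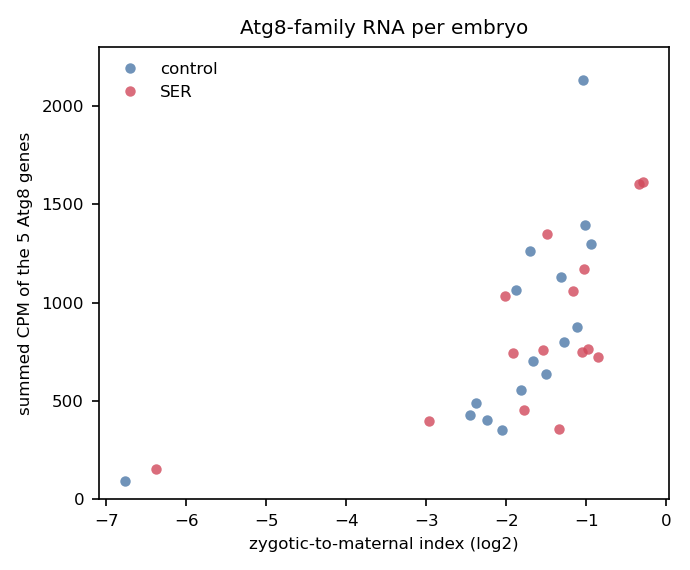
Summed CPM of the 5 Atg8 genes against the zygotic-to-maternal index, 1 point per embryo (control blue, SER red). The embryos at the far left have 92.0 and 153 CPM, and the other 29 lie between 351 and 2130 CPM.

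In the ULK complex, Atg101 had 129.8 and 90.7 CPM in control replicate 4 and SER replicate 15 and 156 to 865 CPM in the other 29 embryos, with a slope of 0.42 (SE 0.079, adjusted p = 4.11e-05). The kinase Ulk1 had a slope of 0.48 (SE 0.11), Rb1cc1 0.29 (SE 0.074) and Atg13, the adaptor between them, 0.26 (SE 0.10), all called, while Ulk2 with 0.18 (SE 0.15) was not (adjusted p = 0.352). Without the pair, Atg101 (0.92, SE 0.16), Atg13 and Rb1cc1 were called again, and Ulk1 was not (0.36, SE 0.23, adjusted p = 0.240). Of membrane supply, Vmp1, Atg2b and Atg9a had slopes of 0.46, 0.48 and 0.30, and of conjugation Atg4d, Atg3 and Atg16l1 had 1.00, 0.25 and 0.24, all called. Vmp1 had 21.1 and 47.1 CPM in the pair and 59.4 to 403 CPM in the others. Atg4d had no count in either embryo of the pair and also none in 3 others, and without the pair its slope was 0.64 (SE 0.52, adjusted p = 0.375). Atg9a (0.34, adjusted p = 0.188) and Atg16l1 (0.38, adjusted p = 0.198) were also not called without the pair.

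Atg5, the acceptor of Atg12 and part of the enzyme that attaches Atg8 proteins to lipid, went the other way. It lies on chromosome 10 from 44268358 to 44364291. It had 610 and 796 CPM in control replicate 4 and SER replicate 15 and 112 to 452 CPM in the other 29 embryos, with a median of 211. Its slope was -0.39 (SE 0.050, adjusted p = 6.99e-08), and -0.54 (SE 0.14, adjusted p = 0.00399) without the pair. Uvrag, a partner of Becn1, fell with a slope of -0.41 (SE 0.12, adjusted p = 0.00398), with 143 and 291 CPM in the pair and 11.7 to 297 CPM in the others. Optn fell with -0.50 (SE 0.17, adjusted p = 0.0157), with 60.4 and 70.1 CPM against 0 to 61.9 CPM. Wipi1 (-0.28, SE 0.13, adjusted p = 0.0744) and Ambra1 (-0.18, SE 0.088, adjusted p = 0.0956) lay near the threshold.

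Atg12 depended on the pair. It had 90.5 and 114 CPM there and 6.89 to 71.2 CPM in the other 29 embryos, and its slope was -0.19 (SE 0.089, adjusted p = 0.0697) with all embryos but 0.62 (SE 0.25, adjusted p = 0.0644) without the pair. Atg14 and Sqstm1 were called in the 29 embryos but not in all 31, with slopes of 0.42 (SE 0.16, adjusted p = 0.0548) and -1.13 (SE 0.40, adjusted p = 0.0357), against 0.12 (SE 0.069) and -0.22 (SE 0.20) there. Nbr1, the steadiest of the cargo receptors, had 77.0 to 289.5 CPM over all embryos and slopes of 0.070 (SE 0.062) and 0.28 (SE 0.15). Tfe3 had a slope of -0.019 (SE 0.11, adjusted p = 0.899) and Becn1 one of -0.065 (SE 0.088, adjusted p = 0.560).

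**Figure D5:**
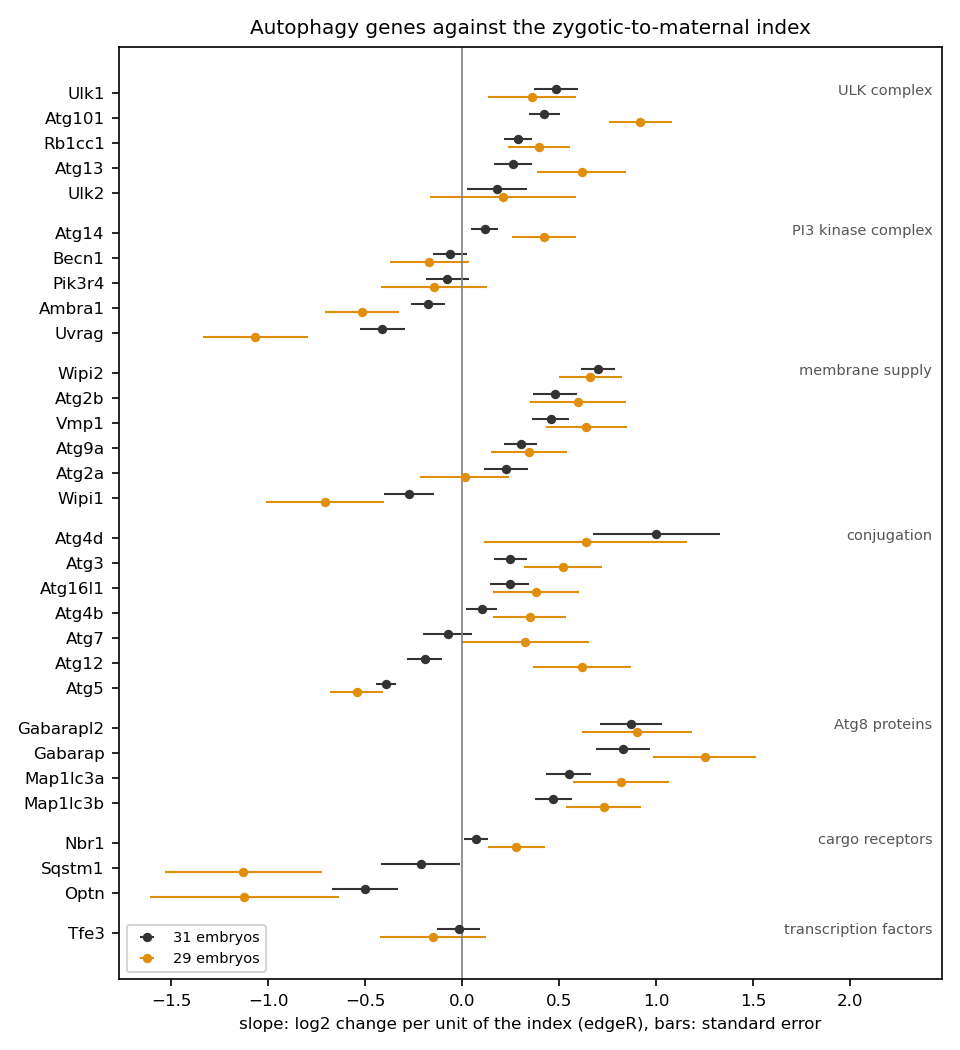
Slope of each tested autophagy gene on the zygotic-to-maternal index with its standard error from edgeR, for all 31 embryos (black) and for the 29 embryos without control replicate 4 and SER replicate 15 (orange). Atg8 genes lie right of 0 in both fits, Atg5, Uvrag and Optn left of 0, and Atg12 and Atg7 change side.

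Counting single genes, 7 of the 31 had their values in control replicate 4 and SER replicate 15 both below those of the other 29 embryos, namely Atg101, Rb1cc1, Vmp1, Wipi2, Gabarap, Gabarapl2 and Map1lc3b. Over all tested genes this share was 13.2%, against 22.6% here. Values of both embryos above all others were found for Atg5 and Atg12, 6.45% against 4.87% of all genes. These are descriptions of 2 libraries with no test.

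The slopes were also estimated within kinds of embryo. In 3 clusters estimated from the 1000 most variable genes, control replicate 4 and SER replicate 15 formed a cluster of their own, and the other 2 held 21 and 8 embryos, at an index of -2.02 to -0.29 and -2.96 to -1.35. With the clusters as a term in the test, 0 autophagy genes were called in either direction, and of all genes 0.105% rose and 0.035% fell. The slopes in that fit were 0.66 (SE 0.22) for Atg101, 0.64 (SE 0.33) for Gabarap, 0.35 (SE 0.20) for Wipi2 and -0.35 (SE 0.18) for Atg5. Without the term they were 0.42, 0.83, 0.70 and -0.39, each with a smaller standard error. Whether slopes differed within clusters was not tested. Within the cluster of 21 embryos, slopes were 0.94 (SE 0.40) for Gabarap, 0.82 (SE 0.26) for Atg101, 0.37 (SE 0.25) for Wipi2 and -0.35 (SE 0.22) for Atg5, with adjusted p between 0.222 and 0.553. Within the cluster of 8 embryos, slopes were -0.45 (SE 0.63) for Gabarap, 0.12 (SE 0.34) for Atg101, 0.20 (SE 0.34) for Wipi2 and -0.45 (SE 0.38) for Atg5. The cluster of 21 held 11 control- and 10 SER-generated embryos and that of 8 held 4 of each, and since the batches of the embryos are not in the labels, batch and state of the embryo cannot be told apart here. The index and the log2 library total had a Pearson correlation of 0.125 over the 31 and of 0.406 over the 29 embryos, and with the library total as a covariate 16 autophagy genes rose and 5 fell, against 31.7% and 22.8% of all genes.

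The spread between embryos was compared as well. The mean absolute deviation of log2 CPM from the group median was smaller in SER-generated embryos for 22 of the 31 genes, or 71.0%, against 54.0% of all genes. It was 0.48 in control- and 0.27 in SER-generated embryos for Atg14 and 0.85 and 0.48 for Map1lc3b. Limma on these deviations called 0 of the 31 genes and 0% of all genes at an adjusted p under 0.1. An unadjusted p under 0.05 was found for 0 of the 31 and for 2.98% of all genes, and the smallest among the autophagy genes was 0.0804, for Atg14. SER libraries were deeper, and with all libraries thinned to 532945 counts the deviation was smaller in SER-generated embryos for 16 of 29 genes, or 55.2%, against 51.8% of all genes.

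Genes around the core machinery were read from fixed lists in the same tests. None of 25 tested genes of other autophagy factors, 17 of fusion with the lysosome, 38 of the lysosome and 28 of the mTORC1 and AMPK nutrient sensors was called between SER- and control-generated embryos by edgeR at an adjusted p under 0.1, and 1, 2, 0 and 2 of them had an unadjusted p under 0.05, beside 5.73% of all genes. Among those with the smallest p were Wdfy3, a scaffold for aggregate clearance, with a log2 fold change of 0.62 (adjusted p = 0.869), the Rab7 activator subunit Mon1b with -0.62, Plekhm1 with 0.49, the proton pump subunit Atp6v1g1 with -0.69, the cholesterol exporter Npc1 with 0.75 and the mTORC1 anchors Rragc and Lamtor2 with -0.58 and -0.51. In spread, the smallest p was that of Lamp1, a lysosomal membrane protein, with deviations of 0.83 in control- and 0.26 in SER-generated embryos (limma adjusted p = 1), and the next in their lists were Atp6v0a2, Mon1b, Ccz1, Rragc, Prkaa1, Zfyve1 and Wdfy3, also with an adjusted p of 1. Against the index, 8 rose and 3 fell among the other autophagy factors, 6 and 7 among the fusion genes, 16 and 4 among the lysosome genes and 8 and 7 among the nutrient sensors. In percent of the tested genes these were 32.0 and 12.0, 35.3 and 41.2, 42.1 and 10.5, and 28.6 and 25.0, beside 31.5% rising and 22.6% falling over all genes. Calcoco2, a cargo receptor, had a slope of 1.33 (SE 0.16, adjusted p = 2.32e-08), and the lysosomal proteases Ctsl and Ctsb had 1.41 (SE 0.17, adjusted p = 4.01e-08) and 0.77 (SE 0.11, adjusted p = 3.17e-07). Mon1a, Wdr45b and Cab39 had slopes of 1.10, 0.92 and 0.70, all called. Rraga, a GTPase that brings mTORC1 to the lysosome, had a slope of -0.88 (SE 0.068, adjusted p = 3.64e-12), and Rab7, a GTPase of late endosomes, had -0.45 (SE 0.089, adjusted p = 9.11e-05). Without control replicate 4 and SER replicate 15, slopes were 1.12 for Calcoco2, 1.14 for Ctsl, -1.01 for Rraga and -1.11 for Rab7, all called again, whereas Wdr45b was not (0.44, adjusted p = 0.169), and 14 of 39 lysosome genes rose and 6 fell, beside 18.5% and 17.2% of all genes.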

How the data were processed

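RNA was sequenced from 31 single 2-cell embryos by a modified Smart-seq3 protocol. The deposited values are raw read counts per gene symbol. The authors separated 5′ reads with a molecular identifier from internal reads, aligned both with STAR (mm10, per the labels), removed duplicates with UMI tools and Picard, and counted reads per gene with featureCounts. Tool versions, annotation and strand setting are not given in the sources used here, and the table was taken as the one before ComBat-seq.

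Counts were fitted with edgeR 4.0.16 in R 4.3.3 (TMM, genes kept by filterByExpr at count 10 and total 15, quasi-likelihood test, Benjamini-Hochberg over all tested genes, adjusted p under 0.1). Standard errors are the estimate divided by the square root of F. CPM used library totals of 532945 to 3088396, log2 CPM a prior count of 2. Deviations were tested with limma 3.58.1, and alternatives used DESeq2 1.42.0 and limma voom. Since internal reads have no molecular identifier, counting error alone understates the true error. The authors' batches are not in the labels and no batch term was fitted. No library duplicated another.

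The autophagy genes and all lists were chosen with earlier results of these data known. Genes picked for description were the highest of each role and the 3 higher and 3 lower genes with the smallest p between groups. The 4 most positive and 4 most negative slopes, the Atg8 genes and those called were also picked. Lowest, median and highest values per group are given for the 3 higher and 3 lower genes and for Map1lc3b. From the other lists, the 2 genes with the smallest p in each comparison were named, except for 1 result that is not reported here. The 2 sets of embryos left out together and the fits within clusters were chosen after seeing the data. The tests were checked on simulated data with known changes.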

Additional observations from a re-analysis of the deposited data

How the results depend on the processing

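Between SER and control, the number of autophagy genes called was 0 under every alternative and with each embryo left out, except for 5 under limma voom with sample quality weights. Of all genes, limma voom called 9.89%, the fit without the filter 2.83%, DESeq2 0.572% and the fit with the estimated clusters 0.478%. The median log2 fold change of the autophagy genes ran from 0.045 to 0.20 with each embryo left out. Estimates near 0 changed sign. That of Atg4d was 0.22 with the replicate number as a block. That of Optn was 0.040 and that of Map1lc3b -0.068 with the library size as a covariate, those of Gabarap and Map1lc3a were 0.49 and 0.18 under limma voom, and that of Gabarapl2 was -0.028 with the estimated clusters and -0.28 with the replicate number as a block. With each embryo left out, the fold change ran from -0.47 to 0.13 for Gabarap, from -0.12 to 0.33 for Gabarapl2 and from -0.037 to 0.21 for Map1lc3b. The number of genes rising with the index was 0 with the estimated clusters as a term and 0 within the cluster of 21 and 0 within that of 8 embryos, and the number falling was 0 in all 3. Over all genes at most 0.105% rose and 0.035% fell in these fits. The number falling was 3 of 39 without the filter, against 11.9% of all genes. It was 3 of 31 with the stricter filter, against 20.4%, and 3 of 31 with the replicate number as a block, against 18.8%. It was also 3 at an adjusted p under 0.05, and 3 to 6 with each embryo left out (3 without control replicate 2, 4, 9, 10 or 13). The number rising was 15 to 16 with each embryo left out. With the zygotic list alone 11 rose and 4 fell, against 26.9% and 17.7% of all genes. With the maternal list alone 17 rose and 4 fell, against 23.6% and 24.5%, and Gabarap was not called. Slopes that changed sign were those of Atg7 (not called, -0.076 in all embryos and 0.32 without control replicate 4 and SER replicate 15), Tfe3 (0.0037 with the stricter filter, 0.37 with the clusters as a term, 0.056 with the block, 0.054 with the maternal list alone, 0.29 and 0.47 within the clusters of 21 and 8 embryos, -0.065 to 0.016 with each embryo left out, -0.15 without control replicate 4 and SER replicate 15) and Atg12 (0.37 with the clusters, 0.62 without control replicate 4 and SER replicate 15, 0.57 within the cluster of 21, -0.21 to -0.11 with each embryo left out). Within the cluster of 21 embryos that of Atg4d was -0.030. Within that of 8 embryos the slopes were -0.000709 for Atg4d, -0.68 for Gabarapl2, -0.45 for Gabarap, 0.33 for Uvrag, -0.19 for Map1lc3a, -0.97 for Atg13, -0.69 for Atg16l1, -0.47 for Rb1cc1 and -0.059 for Ulk1. The causes were not tested, and the fits within clusters held fewer embryos. Same-numbered embryos had correlations of -0.368 to 0.494 in their deviations, with a median of 0.113. Of the 15 pairs, 8 were over 0.1 and 5 below -0.1. Of the 15 SER-generated embryos, 2 correlated best with the control embryo of their own number. Several embryos may come from the same batch, so these values do not show whether same-numbered embryos shared a male, a clutch or a batch. With the block the count between groups was 0 as before, and 16 autophagy genes rose and 3 fell, against 27.4% and 18.8% of all genes.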
